A study of Homo sapiens with 6 samples.

Results

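The genes described here are 51 components of protein folding and quality control in the endoplasmic reticulum (ER), chosen by name from a list of unfolded-protein sensors, folding enzymes, oligosaccharyltransferase and signal peptidase subunits and ER-associated degradation (ERAD) genes. All 51 were found among the 61852 genes of the count table, and all 51 entered the test. They were measured by poly(A)-selected RNA-seq in MEG-01, an established human megakaryoblastic leukaemia line. The control group held 3 libraries of cells transduced with the empty pLKO.1 vector, a lentiviral plasmid for short hairpin RNAs, and the knockdown group held 3 libraries of cells transduced with sh2-MELK, a hairpin against the serine/threonine kinase MELK. The knockdown rests on 1 hairpin, the control vector carries no hairpin named in the labels, and all 6 libraries carry the same batch label. The labels call the 3 libraries of a group biological replicates without saying whether they were separate transductions, so the tests measure no more than the spread among them.

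Secreted and membrane proteins enter the ER through the translocon, lose their signal peptide to signal peptidase and receive N-glycans from oligosaccharyltransferase, then fold with the help of chaperones, lectins and disulfide isomerases. Proteins that fail to fold are drawn back to the cytosol and degraded, which is ERAD. When unfolded protein accumulates, the membrane sensors IRE1 (gene ERN1), PERK (gene EIF2AK3) and ATF6 start the unfolded protein response (UPR), which raises the transcription of folding and degradation genes through the factors XBP1, ATF6 and ATF4. Megakaryocytes make large amounts of membrane and granule protein in the ER.

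The promoter elements that ATF6 and XBP1 are known to bind are shown here because they separate a subset of the genes by sequence and not by expression. Windows from 250 bases before to 50 bases after each start were taken from RefSeq on GRCh38.p14 and matched 44 of the 51 genes by symbol. Those without a window were STT3B, SPCS1, DERL3, PDIA3, UFD1, DERL1 and RPN1. The ER stress response element (ERSE) has the letters CCAAT, 9 free bases, then CCACG, and was searched on both strands. It was found in the windows of 6 of these 44 genes (13.6%), against 0.0916% of all 27305 genes with a window. A gene can have several windows, and 0.0769% of all 35116 windows held it. The related ERSE-II (ATTGG, 1 free base, then CCACG, both strands) was found in 3 more (6.82%), against 0.0696% of all genes with a window. Each is printed on the strand on which the element reads forward, with its fixed letters in capitals; for ERSE-II the free base is in capitals too.
XBP1 (chr22:28800598-28800626, minus strand): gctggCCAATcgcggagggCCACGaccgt
PDIA6 (chr2:10812848-10812876, minus strand): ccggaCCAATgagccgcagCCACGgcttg
CALR (chr19:12938379-12938407, minus strand): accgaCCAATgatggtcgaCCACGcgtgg
CANX (chr5:179698773-179698801, plus strand): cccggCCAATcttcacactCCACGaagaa
CRELD2 (chr22:49918549-49918577, minus strand): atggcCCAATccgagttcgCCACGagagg
ERO1B (chr1:236282178-236282206, plus strand): ggcggCCAATgaggcgggaCCACGcgggc
HERPUD1 (chr16:56932016-56932044, plus strand): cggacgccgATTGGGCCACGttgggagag
SDF2L1 (chr22:21642105-21642133, minus strand): agggttttgATTGGTCCACGcttccgagg
HYOU1 (chr11:119057371-119057399, plus strand): cggcctgggATTGGACCACGtcacggggc
HYOU1 (chr11:119057265-119057293, plus strand): cgcgtactcATTGGACCACGtcccaggcc
The element of XBP1 lies 52 to 34 bases before the start, on the strand of the gene. The last 150 bases before that start are shown because XBP1 had the second largest fall of the ER genes that passed the test, with the ERSE letters in capitals.
XBP1 (chr22:28800570-28800719, minus strand): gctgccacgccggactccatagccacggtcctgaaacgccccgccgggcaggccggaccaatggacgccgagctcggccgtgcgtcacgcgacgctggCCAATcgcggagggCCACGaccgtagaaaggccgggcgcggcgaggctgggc
HYOU1 holds 2 ERSE-II elements, and in CANX the element crosses 1 of its annotated starts. The unfolded protein response element (UPRE, TGACGTGG, both strands) occurred in the windows of SSR3, VCP, HYOU1 and SSR4. These are 9.09% of the 44 genes, against 0.927% of all genes with a window. The UPRE of HYOU1 overlaps an ERSE-II. A match is a description of the letters and not of binding.

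Library totals ran from 18945176 to 21711313 counts. As deposited, 57.9% of all genes hold no value other than 0, 1, 2, 10 and 100, and the other values look like reads to which one of these 5 numbers was added, so counts of this size are unreliable. None of the 51 ER genes is of that kind, but 13 have a mean under 500 counts. MELK itself had counts of 219, 206 and 238 in the control against 16, 124 and 26 after knockdown (log2 fold change of knockdown over control -1.98 ± 0.69, SE, edgeR adjusted p = 0.104). Its fall passed without knockdown replicate 2 (-3.32, adjusted p = 0.00271) and was -3.39 (95% interval -3.88 to -2.97) with the added number modelled. That model gives every gene the same dispersion (0.00293). Its intervals and calls therefore do not measure the spread of a single gene among its replicates.

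Some marker genes from the lists of several lineages also shifted. Levels are given as CPM, counts per 1000000 of the library, scaled by the trimmed mean of M-values (TMM). Megakaryocyte markers summed to 3246 to 3366 CPM in the control and to 2281 to 2364 CPM after knockdown, with 5 higher and 6 lower of 17 tested, while 6 of the 20 listed had a mean under 50 counts, PF4 and PPBP among them. Most of the fall in that sum was in 1 gene, ITGA2B, at 2024 CPM in the control and 1061 CPM after knockdown. PLEK, among the 5 higher, went from 155 to 305 CPM, so the sum does not stand for the whole list. Erythroid markers summed to 1355 to 1378 CPM in the control and to 628 to 646 CPM after knockdown, and 8 of 14 were lower. Granulocyte and monocyte markers summed to 477 to 509 CPM and 293 to 320.0 CPM, in the same order (2 higher and 3 lower of 11 tested), stromal and endothelial markers to 177 to 216 CPM and 257 to 270.4 CPM (2 higher and 1 lower of 9), and epithelial markers to 76.6 to 82.05 CPM and 94.1 to 110.4 CPM (1 of 8 higher). Plasma cell markers, from a cell type with a large ER, summed to 10.5 to 34.8 CPM and 7.95 to 26.3 CPM, and lymphocyte markers to at most 21.5 CPM in the control and 19.7 CPM after knockdown, levels near those of the added number. PECAM1 made up most of the stromal and endothelial sum, at 156 CPM in the control and 215 CPM after knockdown. KRT18 made up most of the epithelial rise, at 45.2 CPM in the control and 64.8 CPM after knockdown. A sum carried by 1 gene does not show a shift of the lineage. Over all genes tested 8.12% were higher and 8.43% lower, and 32.5% and 35.5% of those with a mean count of 500 or more. At that level 4 megakaryocyte markers were higher and 5 lower of 9. For erythroid markers it was 0 and 8 of 9, and for granulocyte and monocyte markers 1 and 3 of 4. The other lists had at most 1 marker at that level. The lists are short and were not tested as sets. The part of these marker shifts in the ER genes was not tested. In bulk RNA, fewer cells of a type and less RNA per cell cannot be told apart.

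Across the 6 libraries the genes moved both ways and mostly by little. At an adjusted p below 0.05 (edgeR quasi-likelihood test, adjusted over all 28303 genes tested), 18 of the 51 were higher in the knockdown, 11 were lower and 22 did not pass. Over all genes tested 16.5% passed, 8.12% higher and 8.43% lower, but that figure includes many genes without reads. Of the 38 ER genes with a mean count of 500 or more, 27 passed (71.1%), 17 higher and 10 lower, against 68.0% of the 5038 genes at that level (32.5% higher and 35.5% lower). The share of ER genes that passed was thus near the background. The median log2 fold change was 0.10 over those 38 genes and -0.018 over all 5038, and it was 0.047 over all 51 and 0.022 over all genes tested.

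The sizes were small. Of the 51 genes 9 passed and changed by at least 1.5-fold, against 8.97% of all genes tested, namely XBP1, EDEM2, HERPUD1, STT3A, HERPUD2, DAD1, SSR3, SPCS2 and NPLOC4. At a mean count of 500 or more these were 7 of 38 (18.4%), against 28.8% of all such genes. A test against a change of 1.5-fold itself was passed by XBP1, EDEM2 and DAD1. The groups did not overlap in 37 of the 51 genes, and in 31 of the 38 (81.6%) against 79.2% of all genes at that level and 30.7% of all genes tested. Together the 51 genes held 0.805%, 0.820% and 0.811% of the counts of the control libraries, against 0.848%, 0.850% and 0.848% after knockdown. Every knockdown library was above every control library (exact permutation test, two-sided, p = 0.10, the smallest that 3 against 3 can give). In CPM scaled by TMM, as used for the levels here, the summed values overlapped, at 8469.9 to 8597.6 CPM in the control and 8418.4 to 8622.00 CPM after knockdown, so the separation depends on the scaling.

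**Figure D1:**
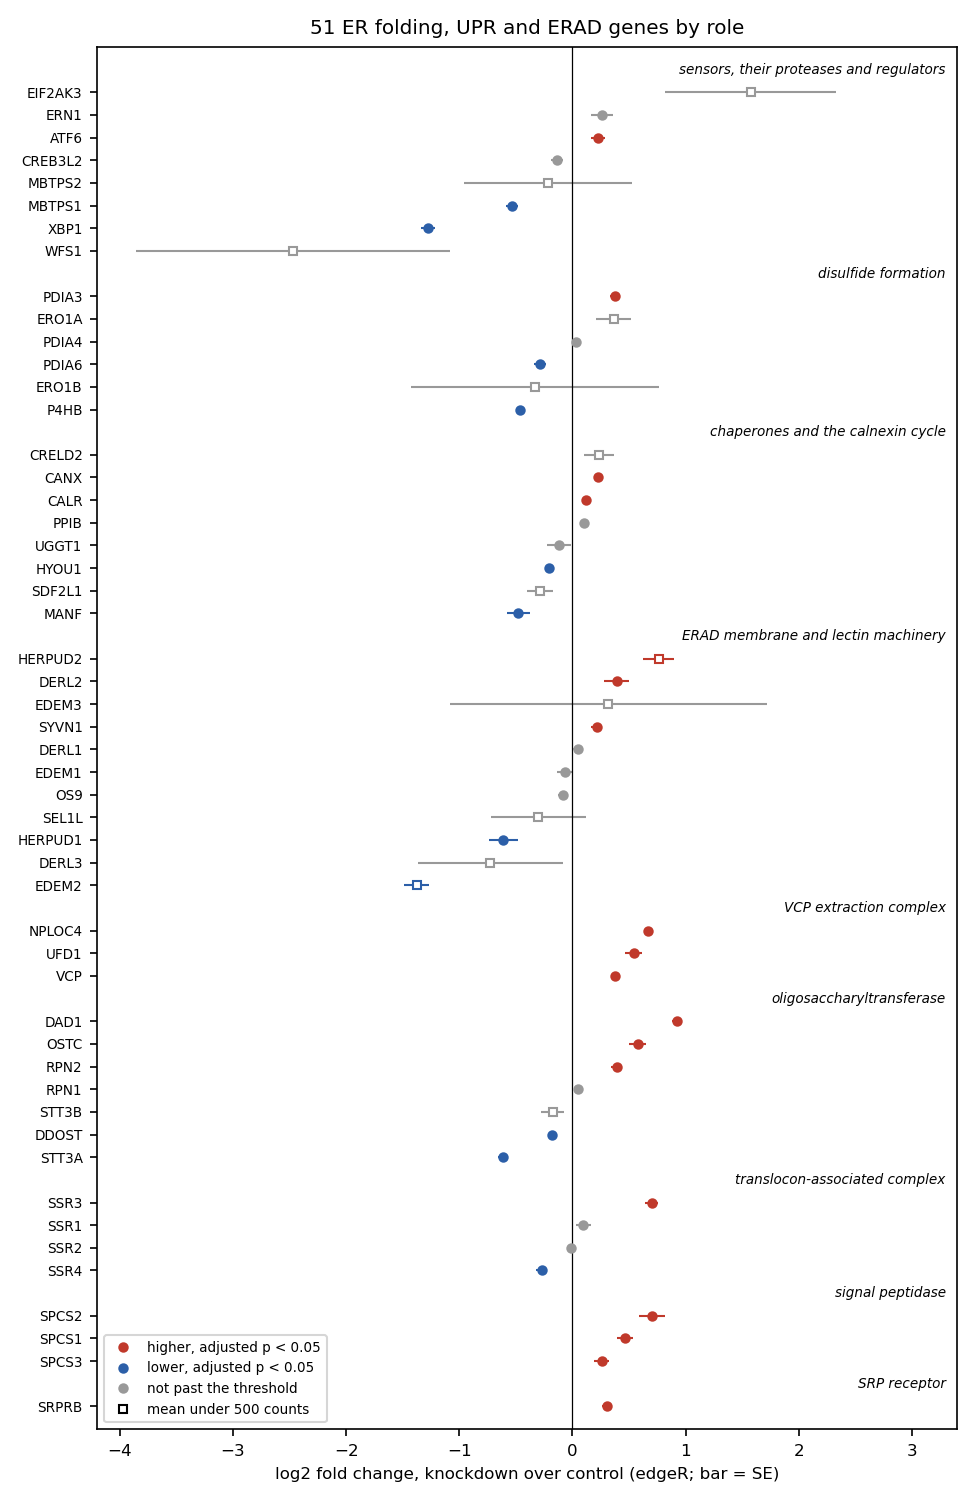
Log2 fold change of knockdown over control for the 51 ER genes, grouped by role on the vertical axis, with SE bars and filled circles for genes with a mean count of 500 or more. The 3 VCP complex genes and the 3 signal peptidase genes lie to the right of 0, while the other larger roles are spread over both sides, with XBP1 and EDEM2 farthest left among the genes past the threshold.

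Across genes with a mean count of 500 or more the log2 fold change was lower where GC content was higher (Spearman rho -0.386, across genes, which are not independent replicates). Among the ER genes, the median GC content of the longest transcript was 44.9% for those that were higher and 51.3% for those that were lower. In an alternative added after the values were seen, the trend of every library with GC content and transcript length was taken out. It left 14 higher and 15 lower of the 38 genes, against 40.2% and 36.4% of all genes in that fit. The same genes fitted alone without it gave 19 higher and 10 lower, against 38.1% and 38.9%. The median log2 fold change of the 38 was -0.0062 with the trend removed. Values that it moved by more than 1.5 times, reversed or took across the threshold are given beside each gene. Which of the 2 fits is nearer to the change in the cells was not tested.

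**Figure D2:**
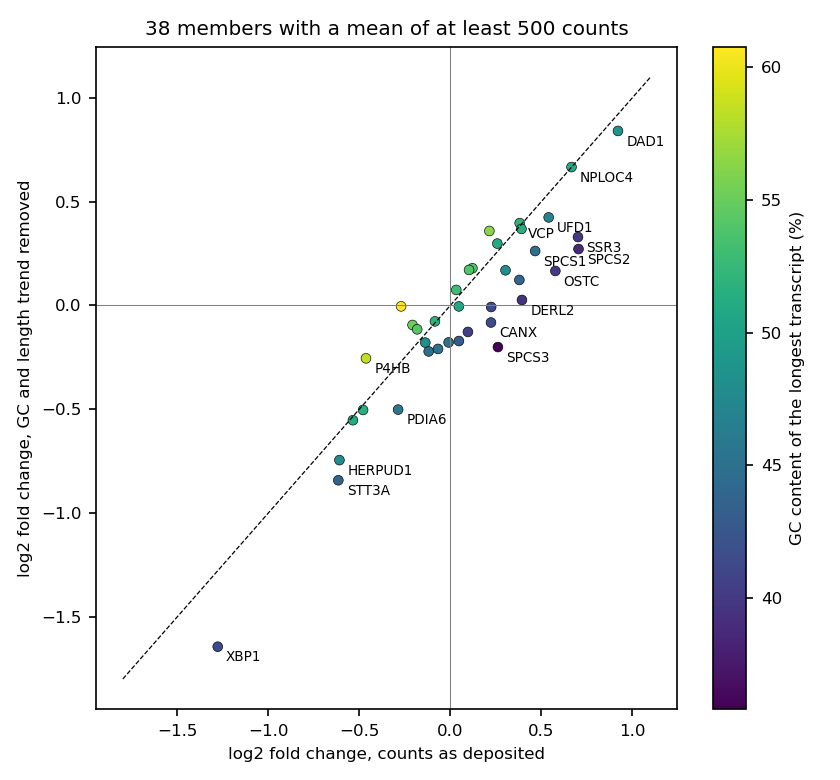
Log2 fold change with the GC and length trend removed (vertical axis) against that from the counts as deposited (horizontal axis) for the 38 ER genes with a mean count of 500 or more, coloured by GC content in percent, with a dashed line of equality. Genes of low GC content such as SPCS2, SPCS3, OSTC and DERL2 lie below the line, those of high GC content such as P4HB lie above it, and NPLOC4, VCP and DAD1 stay close to it.

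Of all genes at a mean count of 500 or more, 32.5% were higher and 35.5% lower, the shares to read the tallies by role against. The roles hold too few genes at that level to be set apart from it. Of 8 sensors, proteases and regulators 1 was higher and 2 were lower, all at that level, which 5 of the 8 reach. Of these 3 the largest change was in XBP1, the transcription factor whose mRNA is spliced by IRE1 (chromosome 22, 28794555 to 28800597, GRCh38). It stood at 153, 168 and 160.3 CPM in the control libraries, and 61.1, 70.3 and 66.98 CPM remained after knockdown. All 3 control libraries were far above all 3 knockdown libraries. The log2 fold change was -1.28 ± 0.060 (SE, adjusted p = 2.66e-06), a level of 0.412 times the control. It was -1.64 with the GC and length trend removed. Gene counts do not separate the spliced and unspliced forms of XBP1.

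ERN1, which encodes the IRE1 sensor that splices XBP1 (chromosome 17, 64039142 to 64130819), was at 27.6, 34.5 and 32.4 CPM in the control against 40.6, 36.5 and 35.8 with the knockdown. The groups did not overlap, by a narrow gap. Its log2 fold change of 0.26 ± 0.10 did not pass in the fit over all genes (adjusted p = 0.137) and passed in the fit restricted to a mean count of 500 or more (adjusted p = 0.0229), where it lost its call without control replicate 1 (adjusted p = 0.0981) or knockdown replicate 1 (adjusted p = 0.103). With the trend removed ERN1 passed (0.30, adjusted p = 0.00857). ATF6, the sensor that is cut in the Golgi to release a transcription factor, was at 34.5, 36.1 and 36.5 CPM in the control against 40.1, 42.4 and 42.6 with the knockdown, a log2 fold change of 0.22 ± 0.060 (adjusted p = 0.0347). With the GC and length trend removed it was -0.0078 (adjusted p = 0.931). ATF6 also lost its call without control replicate 1 or 2 (adjusted p = 0.0653 and 0.0646) or knockdown replicate 2 or 3 (adjusted p = 0.102 and 0.0991).

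MBTPS1, the site-1 protease that makes the first cut in ATF6 (chromosome 16, 84053761 to 84116906), fell. Its levels were 76.6, 83.6 and 79.2 CPM in the control against 52.2, 57.3 and 55.6 with the knockdown, with a log2 fold change of -0.54 ± 0.055 (adjusted p = 0.000191). Its value with the trend removed was -0.55. CREB3L2, an ER-tethered factor related to ATF6, was at -0.14 ± 0.055 (adjusted p = 0.165) and passed as lower with the trend removed (-0.18, adjusted p = 0.00991).

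The other sensor genes had few reads. EIF2AK3, which encodes the PERK kinase, had deposited counts of 45, 23 and 50 in the control against 84, 64 and 189 after knockdown and did not pass (1.58 ± 0.75, adjusted p = 0.269). With the added number modelled its log2 fold change was 1.19 (95% interval 0.79 to 1.6), and it passed. The dispersion shared by all genes in that model does not take in the spread of the EIF2AK3 counts. MBTPS2, the site-2 protease, had counts of 57, 171 and 60 against 52, 42 and 148 (-0.22 ± 0.74, adjusted p = 0.971), and its sign was positive without control replicate 2, knockdown replicate 1 or knockdown replicate 2 (0.55, 0.029 and 0.11). It was -0.39 (95% interval -0.76 to -0.04) with the added number modelled and passed under no alternative. WFS1, an ER membrane protein of calcium handling, had counts of 13, 18 and 107 against 10, 12 and 2, near the size of the added number. It did not pass (-2.47 ± 1.39, adjusted p = 0.351) and was -3.29 (95% interval -5.9 to -1.5) with the added number modelled.

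Among the enzymes of disulfide formation, 1 of 6 was higher and 2 were lower, and at a mean count of 500 or more 1 and 2 of 4. P4HB, which encodes protein disulfide isomerase itself (chromosome 17, 81843159 to 81860694), was at 1675, 1630.3 and 1638 CPM in the control against 1180.2, 1223 and 1182 with the knockdown. It had the highest counts of this role, and its groups were well apart. The log2 fold change was -0.46 ± 0.025 (adjusted p = 4.67e-06), or -0.25 with the GC and length trend removed. PDIA6 (chromosome 2, 10783391 to 10837977), a further isomerase, fell from 206 ± 11.9 to 169 ± 6.33 CPM (SD, n = 3), or by 0.29 ± 0.050 on the log2 scale (adjusted p = 0.00412). With the trend removed it was -0.50.

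PDIA3 (chromosome 15, 43746392 to 43773279), the isomerase that works with calnexin and calreticulin on glycoproteins, rose. Its levels were 201, 225 and 221 CPM in the control against 276, 281 and 286 with the knockdown, a log2 fold change of 0.38 ± 0.046 (adjusted p = 0.000505) that dropped to 0.12 with the trend removed. PDIA4, which has extra thioredoxin-like domains, overlapped between the groups (0.033 ± 0.039, adjusted p = 0.756, and 0.075 with the trend removed, adjusted p = 0.106). ERO1A, the oxidase that recharges protein disulfide isomerase, had counts of 295, 319 and 302 against 401, 455 and 300 and did not pass (0.36 ± 0.15, adjusted p = 0.185). It was 0.12 (95% interval -0.07 to 0.41) with the added number modelled. Its paralog ERO1B had counts of 42, 151 and 35 against 129, 21 and 31, with overlapping groups, and did not pass (-0.33 ± 1.09, adjusted p = 0.965). With the added number modelled it was -0.69 (95% interval -1.17 to -0.23).

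Chaperones and lectins split as well, with 2 higher and 2 lower of 8, and 2 and 2 of 6 at a mean count of 500 or more. CALR, calreticulin, the soluble lectin chaperone (chromosome 19, 12938578 to 12944489), was at 1548, 1537 and 1547 CPM in the control against 1653, 1675 and 1710.3 with the knockdown. The rise was small and the groups did not overlap (0.12 ± 0.023, adjusted p = 0.00529). It lost its call in the model of the added number (adjusted p = 0.154), which gives every gene the same dispersion. CANX, the membrane lectin calnexin, was at 224, 232 and 221 CPM against 264, 262 and 265 CPM, a log2 fold change of 0.22 ± 0.031 (adjusted p = 0.000912). With the GC and length trend removed its sign reversed, to -0.083 (adjusted p = 0.0245).

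HYOU1, the large chaperone and nucleotide exchange factor of the ER (chromosome 11, 119044189 to 119057202), fell. It stood at 374, 385 and 383 CPM in the control against 329.8, 343 and 317 with the knockdown (-0.21 ± 0.035, adjusted p = 0.00376), and at -0.094 with the trend removed. MANF, a secreted UPR-induced factor, fell from 39.04, 44.3 and 36.9 CPM to 25.6, 28.8 and 31.8 CPM (-0.48 ± 0.10, adjusted p = 0.0128). MANF lost its call without control replicate 2 (adjusted p = 0.0551), knockdown replicate 1 (0.0566) or knockdown replicate 2 (0.0666), as adjusted p-values. The ER cyclophilin PPIB was at 319 ± 6.27 CPM in the control against 343 ± 7.61 with the knockdown (SD, n = 3) and missed the threshold (0.10 ± 0.031, adjusted p = 0.0566), and at a mean count of 500 or more it passed (adjusted p = 0.00322), as it did with the trend removed (0.17, adjusted p = 4.96e-05).

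The glucosyltransferase UGGT1, which returns misfolded glycoproteins to the lectins, had overlapping groups (-0.12 ± 0.11, adjusted p = 0.594) and passed as lower with the trend removed (-0.22, adjusted p = 0.0411). SDF2L1, a stress-induced partner of ER J-domain proteins, had counts of 527, 563 and 499 against 465, 378 and 430 (-0.28 ± 0.12, adjusted p = 0.174). CRELD2, a UPR-induced factor often listed with MANF, had counts of 334, 441 and 375 against 453, 440 and 435 (0.24 ± 0.13, adjusted p = 0.348). Of the 9 genes whose promoters hold the ERSE or ERSE-II letters printed above, 2 were higher (CALR and CANX), 4 lower (XBP1, PDIA6, HYOU1 and HERPUD1) and 3 did not pass, with log2 fold changes from -1.28 to 0.24 and a median of -0.28. Of the 6 of them in the fit with the GC and length trend removed, 1 was higher (CALR) and 5 lower, with CANX now among these at only -0.083. Among all genes at a mean count of 500 or more, 32.5% were higher and 35.5% lower. These shares were 40.2% and 36.4% with the trend removed. Sets of 9 and 6 genes are too small to set the genes with these elements apart.

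In the ERAD machinery of the membrane and lumen, 3 of 11 genes were higher and 2 lower. At a mean count of 500 or more 2 were higher, 1 was lower and 3 did not pass. The share of these 6 that passed was below the 68.0% of all genes at that level. EDEM2, a mannosidase-like lectin that starts the trimming of misfolded glycoproteins (chromosome 20, 35115357 to 35147364), had the largest fall of the ER genes that passed. Its levels were 32.7, 27.5 and 32.2 CPM in the control against 11.01, 12.6 and 12.03 with the knockdown, with no overlap and little spread within groups. The log2 fold change was -1.38 ± 0.11 (adjusted p = 4.65e-05), and -1.36 (95% interval -1.55 to -1.1) with the added number modelled, as its knockdown counts were 217, 253 and 227. Its paralog EDEM1 overlapped between the groups, at 46.2, 53.8 and 49.3 CPM against 47.6, 48.9 and 45.9 CPM (-0.067 ± 0.066, adjusted p = 0.646), and passed as lower with the GC and length trend removed (-0.21, adjusted p = 0.00936). EDEM3 had counts of 57, 32 and 36 against 113, 18 and 21 and did not pass (0.32 ± 1.40, adjusted p = 1.00), and its sign turned from 0.32 to -1.28 with the added number modelled.

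HERPUD1, a UPR-induced scaffold of the ubiquitin ligase complex (chromosome 16, 56932048 to 56944863), and its paralog HERPUD2 (chromosome 7, 35632659 to 35695571) moved in opposite directions. HERPUD1 was at 43.3, 48.02 and 40.99 CPM in the control against 26.2, 25.6 and 34.9 with the knockdown (-0.61 ± 0.13, adjusted p = 0.0108). HERPUD2 was at 14.5, 13.6 and 16.3 CPM in the control against 23.8, 22.1 and 29.5 with the knockdown (0.76 ± 0.14, adjusted p = 0.00509). The groups overlapped for neither gene. HERPUD1 lost its call without control replicate 1 or 2 (adjusted p = 0.0518 and 0.0659) or knockdown replicate 1 or 2 (adjusted p = 0.0722 and 0.0666).

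SYVN1, the ubiquitin ligase HRD1 (chromosome 11, 65121780 to 65134533), rose from 80.04, 74.03 and 74.7 CPM to 85.6, 91.97 and 87.9 CPM (0.21 ± 0.049, adjusted p = 0.017), and its value with the trend removed was larger (0.36). In the annotation 398 of its exonic bases are shared with FAU, a gene with a mean of 10641 counts. SYVN1 lost its call without control replicate 2 or 3 (adjusted p = 0.0561 and 0.0611) or knockdown replicate 2 or 3 (adjusted p = 0.0742 and 0.0583). Its adaptor SEL1L had counts of 162, 123 and 106 against 68, 87 and 152, with overlapping groups, and did not pass (-0.30 ± 0.42, adjusted p = 0.836, and -0.74 to -0.070 with 1 library left out). With the added number modelled it was -0.91 (95% interval -1.2 to -0.62). The lectin OS9, which hands glycoproteins to SEL1L, did not pass (-0.085 ± 0.039, adjusted p = 0.243).

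Of the derlins, membrane proteins of the retrotranslocation channel, DERL2 passed narrowly. It was at 19.6, 24.04 and 26.2 CPM in the control against 29.6, 31.5 and 30.6 with the knockdown (0.39 ± 0.11, adjusted p = 0.046). The value dropped to 0.026 with the GC and length trend removed (adjusted p = 0.833), and the call was lost without control replicate 1 or 2 or any 1 knockdown replicate (adjusted p = 0.0648, 0.122, 0.12, 0.167 and 0.143). DERL1 overlapped between the groups (0.047 ± 0.047, adjusted p = 0.655) and was lower with the trend removed (-0.17, adjusted p = 0.00218). DERL3 had counts of 194, 96 and 86 against 138, 36 and 47 (-0.73 ± 0.64, adjusted p = 0.587), and 77.0% of its exonic bases overlap SMARCB1 on the opposite strand, so its reads are uncertain. In the fit restricted to a mean count of 500 or more, ATF6, MANF, HERPUD1, SYVN1, DERL2 and SPCS3 passed with all 6 libraries and whichever 1 was left out.

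All 3 genes of the complex that pulls ubiquitinated proteins out of the membrane were higher. VCP, the ATPase p97 (chromosome 9, 35056064 to 35073249), was at 322, 326 and 328 CPM in the control against 411, 436 and 423 with the knockdown, a log2 fold change of 0.38 ± 0.031 (adjusted p = 4.73e-05). Its cofactor UFD1 (chromosome 22, 19449910 to 19479215) was at 49.7, 57.2 and 61.5 CPM against 81.8, 84.02 and 79.1 CPM (0.54 ± 0.076, adjusted p = 0.00125). The other cofactor, NPLOC4 (chromosome 17, 81556887 to 81648465), was at 285, 272 and 278 CPM against 445, 453 and 427 CPM (0.67 ± 0.033, adjusted p = 3.70e-06). In each gene every knockdown library was above every control library. Their values with the GC and length trend removed were 0.40, 0.42 and 0.67, in the same order, and all passed. At this level 32.5% of all genes were higher, and 3 genes are too few to set this complex apart from others.

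**Figure D3:**
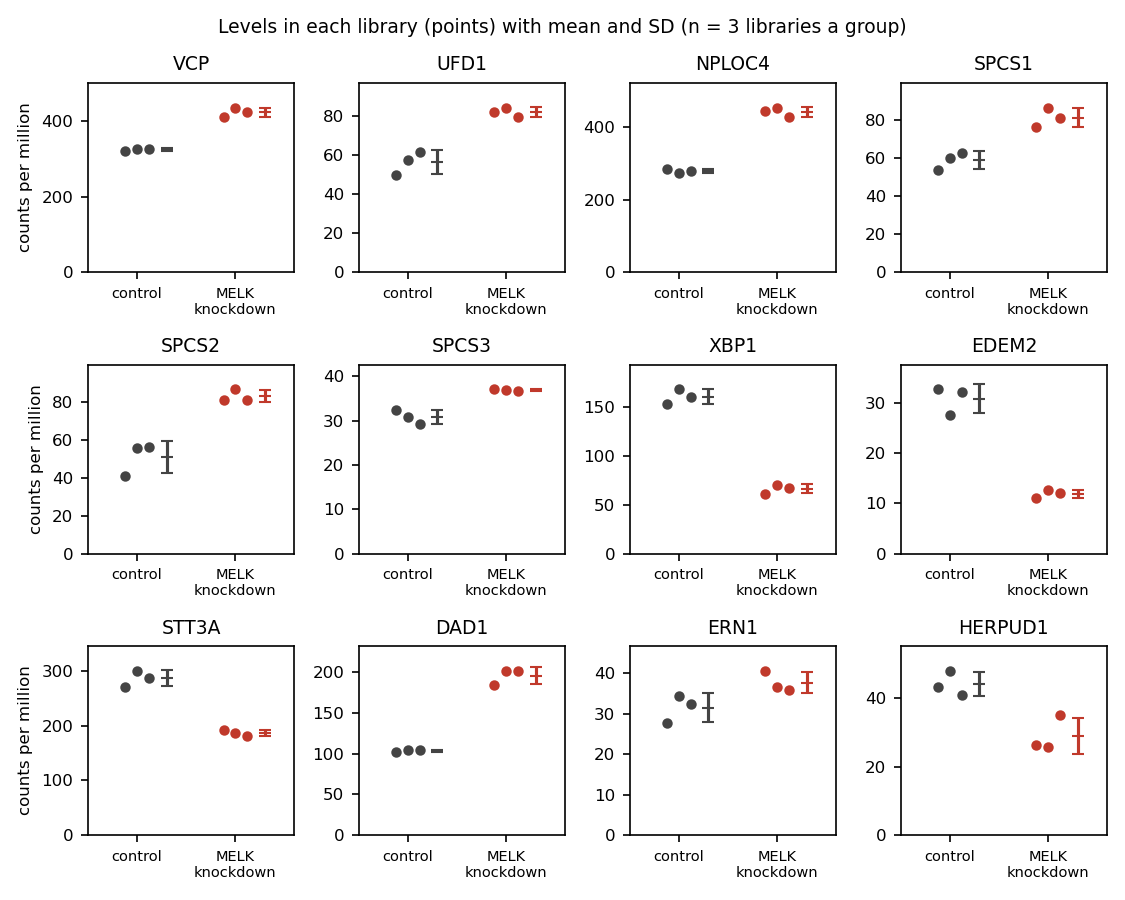
CPM (vertical axis, from 0) of 12 ER genes in the 3 control and 3 knockdown libraries (points), with the mean and SD of each group beside them. The groups are separated in all 12, upward in VCP, UFD1, NPLOC4, the 3 signal peptidase genes, DAD1 and ERN1, and downward in XBP1, EDEM2, STT3A and HERPUD1. The 12 are a selection, so this is not a tally. The groups did not overlap in 37 of the 51 genes, nor in 79.2% of all genes with a mean count of 500 or more. ERN1 did not pass in the fit over all genes (edgeR adjusted p = 0.137).

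Of 7 subunits of oligosaccharyltransferase 3 were higher and 2 lower, and at a mean count of 500 or more 3 and 2 of 6. STT3A, the catalytic subunit that acts on proteins during translocation (chromosome 11, 125591712 to 125625215), fell from 271, 300.3 and 288 CPM in the control to 192, 187 and 181 CPM in the knockdown, with no overlap. The log2 fold change was -0.62 ± 0.044 (adjusted p = 2.59e-05), or -0.84 with the trend removed. STT3B, the alternative catalytic subunit, had counts of 492, 426 and 417 against 391, 406 and 358 (-0.17 ± 0.10, adjusted p = 0.358). DDOST, a non-catalytic subunit, fell slightly, from 494 ± 7.04 to 436 ± 4.69 CPM (SD, n = 3, -0.18 ± 0.026, adjusted p = 0.00113), and was at -0.12 with the trend removed.

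DAD1, a small subunit first known as a defender against cell death (chromosome 14, 22564905 to 22589269), had the largest rise of the ER genes that passed. It was at 102, 104 and 104 CPM in the control against 184, 201 and 202 with the knockdown. The control libraries were within a narrow band and all knockdown libraries were well above it, at 1.89 times the control (0.92 ± 0.044, adjusted p = 2.90e-06, and 0.84 with the trend removed). RPN2, ribophorin II, rose from 171, 187 and 185 CPM to 226, 242 and 243 CPM (0.39 ± 0.046, adjusted p = 0.000463), while RPN1, ribophorin I, overlapped between the groups (0.047 ± 0.029, adjusted p = 0.394, and -0.0047 with the trend removed). OSTC, which links STT3A complexes to the translocon, was at 23.7, 26.5 and 27.7 CPM against 38.2, 38.2 and 39.9 CPM (0.58 ± 0.078, adjusted p = 0.000961). It lost its call with the trend removed (0.17, adjusted p = 0.1), and its reads may be shared with 7 annotated pseudogenes.

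The translocon-associated complex, a set of 4 membrane proteins beside the translocon, had 1 gene higher and 1 lower. All 4 genes had a mean count of 500 or more. SSR3 (chromosome 3, 156540140 to 156555184) was at 51.5, 52.8 and 46.9 CPM in the control against 80.5, 79.8 and 85.5 with the knockdown (0.70 ± 0.058, adjusted p = 5.73e-05), a value that dropped to 0.33 with the trend removed (adjusted p = 0.000109). SSR4 (chromosome X, 153793516 to 153798505) was at 173, 163 and 167 CPM against 148, 138 and 131 CPM (-0.27 ± 0.048, adjusted p = 0.00493), and with the trend removed it no longer passed (-0.0046, adjusted p = 0.925). SSR1 and SSR2 overlapped between the groups (0.10 ± 0.067 and -0.0095 ± 0.040, adjusted p = 0.447 and 1.00), and with the trend removed SSR2 passed as lower (-0.18, adjusted p = 0.00107) while SSR1 did not pass (-0.13, adjusted p = 0.13).

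All 3 accessory subunits of signal peptidase, the enzyme that removes signal peptides, were higher in the counts as deposited. SPCS1 (chromosome 3, 52704955 to 52711146) was at 53.9, 60.3 and 62.9 CPM in the control against 76.7, 86.8 and 81.2 with the knockdown (0.47 ± 0.071, adjusted p = 0.00194). SPCS2 (chromosome 11, 74949247 to 74979031) was at 41.1, 55.4 and 56.4 CPM against 81.1, 86.8 and 81.2 CPM (0.70 ± 0.11, adjusted p = 0.00246). SPCS3 (chromosome 4, 176319964 to 176332245) was at 32.3, 30.8 and 29.1 CPM against 37.1, 36.8 and 36.7 CPM (0.26 ± 0.066, adjusted p = 0.0277). The groups overlapped in none of them. Their values were 0.26, 0.27 and -0.20 once the GC and length trend was removed, and SPCS3 then did not pass (adjusted p = 0.0519). At this count level 32.5% of all genes were higher, and 3 genes are too few to set signal peptidase apart.

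SPCS3 also lost its call without control replicate 2 or 3 (adjusted p = 0.064 and 0.0709) or any 1 knockdown replicate (adjusted p = 0.0794, 0.0772 and 0.0717). The deposited counts of SPCS1 were 1511, 1746 and 1532 in the knockdown and those of SPCS2 were 1599, 1746 and 1532, so the values of the 2 genes were the same in knockdown replicates 2 and 3. SPCS2 has 4 annotated pseudogenes that may share its reads, and 50.7% of the exonic bases of SPCS1 overlap NEK4 on the opposite strand.

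The 2 subunits of the receptor for the signal recognition particle went apart. SRPRB, the membrane-spanning subunit (chromosome 3, 133784033 to 133825772), was at 63.8, 61.8 and 66.2 CPM in the control against 78.3, 78.9 and 79.5 with the knockdown (0.30 ± 0.043, adjusted p = 0.00116), and at 0.17 with the trend removed. SRPRA, the subunit that binds the particle and is not among the 51 genes, was at 306, 301 and 308 CPM in the control against 86.6, 89.2 and 84.4 with the knockdown. It fell by far more than SRPRB rose (-1.81 ± 0.034, adjusted p = 3.92e-08, and -1.82 with the trend removed).

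Levels per length, as CPM per kilobase of annotated exons, ranged widely. At a mean count of 500 or more CALR was highest in the control (569 ± 2.19, SD, n = 3), followed by P4HB (311 ± 4.54), DDOST (182 ± 2.59), PPIB (167 ± 3.28) and DAD1 (128 ± 1.47). These neighbours in the order differed by more than the SDs of each. ERN1 was lowest (2.90 ± 0.326), next to DERL2 (3.64 ± 0.524) and UGGT1 (3.73 ± 0.161), and each of these differed from the next by less than their SDs together. In the knockdown DAD1 (242 ± 12.6) and P4HB (225 ± 4.53) were neighbours that differed by less than their SDs together, both above PPIB and DDOST, and XBP1 moved from 52.96 ± 2.55 to 21.8 ± 1.53. Exonic lengths are those of GENCODE release 29, and a gene whose transcripts use only part of them is understated.

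**Figure D4:**
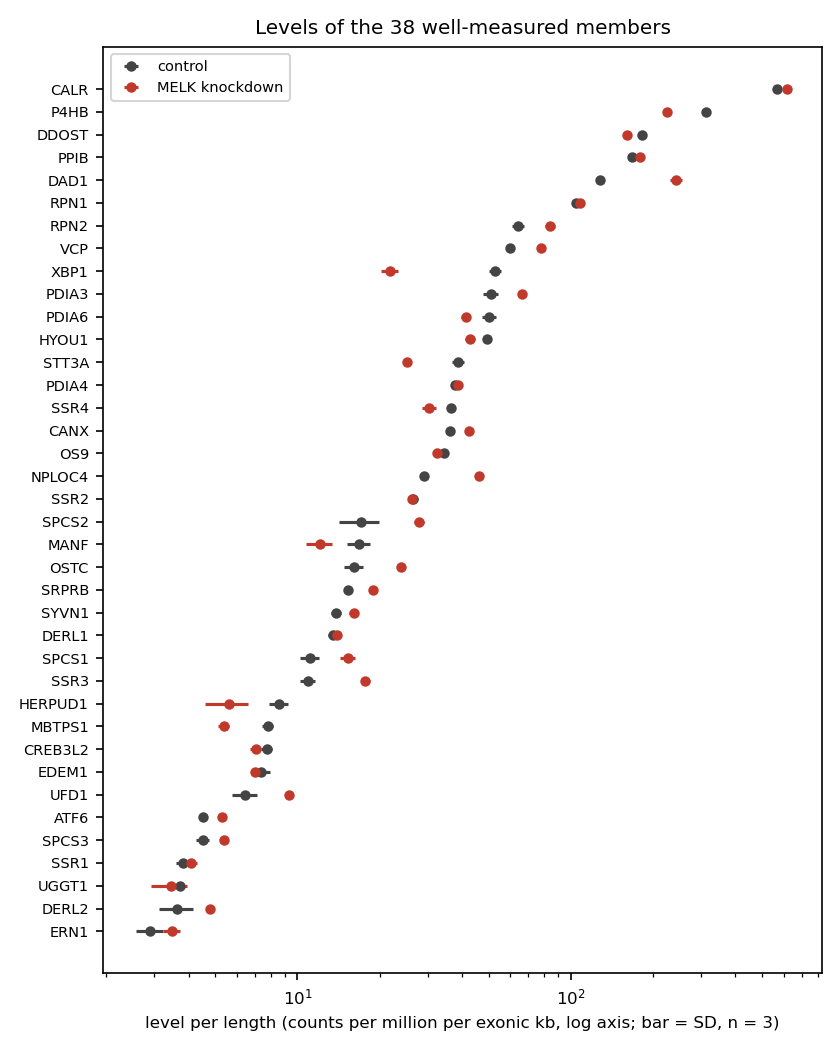
Level per length (CPM per exonic kilobase, log axis) of the 38 ER genes with a mean count of 500 or more in the control and the knockdown, as group means with SD bars (n = 3). Genes are ordered by their control level, from CALR at the top to ERN1 at the bottom, and the widest gaps between the groups are those of XBP1, DAD1, NPLOC4, SSR3, SPCS2 and STT3A.

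Ratios between related genes within a library do not depend on its scaling factor. The log2 ratio of EDEM1 to EDEM2 counts was 0.50, 0.97 and 0.61 in the control libraries against 2.11, 1.96 and 1.93 after knockdown, a difference of 1.31. That of HERPUD1 to HERPUD2 went from 1.57, 1.82 and 1.33 to 0.13, 0.21 and 0.25, a difference of -1.38. That of SSR3 to SSR4 went from -1.75, -1.63 and -1.83 to -0.87, -0.79 and -0.62, a difference of 0.97. None of the ratios is corrected for GC content. The log2 fold changes of SSR3 and SSR4 were 0.33 and -0.0046 with the GC and length trend removed, and those of DERL1 and DERL2 were -0.17 and 0.026. EDEM2, HERPUD2 and STT3B, with a mean under 500 counts, have no such value. The groups were apart in all 3 ratios above, and also in STT3A to STT3B (-0.44) and DERL1 to DERL2 (-0.36). Each of these 5 gave the smallest p that 3 against 3 allows (exact permutation test, two-sided, p = 0.10, or 0.14 adjusted over the 7 ratios), so none can pass 0.05. The ratios of ERO1A to ERO1B and EDEM3 to EDEM2 overlapped between groups (0.78 and 1.203, exact p = 0.40 and 0.20), and both involve a gene with few reads.

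**Figure D5:**
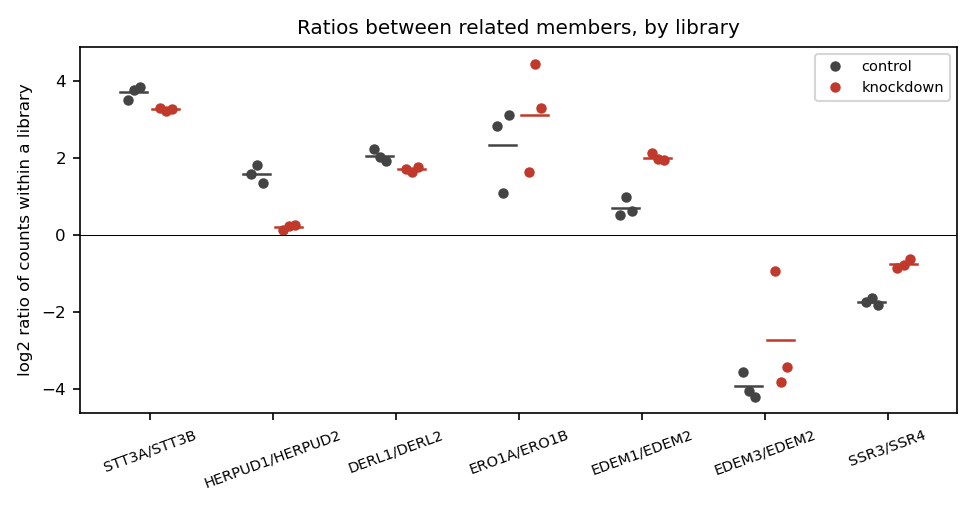
Log2 ratio of counts between 7 pairs of related ER genes in each library, with a line at each group's mean (n = 3). In the knockdown libraries HERPUD1 to HERPUD2 lies lower, near 0, and EDEM1 to EDEM2 and SSR3 to SSR4 lie higher, while the ratios with ERO1B and EDEM3 are scattered.

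Other genes of the pathway were taken from lists that hold 157 genes outside the 51, of which 155 were tested. Of these, 44 were higher, 31 lower and 80 did not pass, and at a mean count of 500 or more 33 were higher and 26 lower of 94 (62.8%, against 68.0% of all genes at that level). The 2 main ER chaperones outside the 51 went apart. HSPA5, which encodes BiP, was at 262, 310.5 and 302 CPM in the control against 332, 358 and 348 with the knockdown (0.25 ± 0.063, adjusted p = 0.0301), and did not pass with the trend removed (0.067, adjusted p = 0.12). HSP90B1, which encodes GRP94, fell from 31.6 ± 5.02 to 21.3 ± 1.69 CPM (SD, n = 3, -0.57 ± 0.12, adjusted p = 0.0137), or by 0.93 with the trend removed. The list of ER chaperones and oxidoreductases outside the 51 gave 8 higher and 3 lower of 34 tested. At a mean count of 500 or more it gave 5 higher and 3 lower of 15 (53.3%, against 68.0% of all such genes). With the trend removed 8 were higher and 4 lower of these 15. The largest rises past the threshold at that level were in the collagen chaperone SERPINH1 (1.11 ± 0.032) and the peroxiredoxin PRDX4 (0.39 ± 0.045). The largest falls were in QSOX2 (-0.64 ± 0.068) and CNPY3 (-0.60 ± 0.047, and -0.35 with the trend removed).

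Of all genes at a mean count of 500 or more, 32.5% were higher and 35.5% lower, and 40.2% and 36.4% with the GC and length trend removed, which are the shares to read the UPR arms against. By arm, 3 of 14 commonly listed ATF6 targets were higher and 6 lower, with a median log2 fold change of -0.29, and 10 of these 14 are among the 51 genes. Of 21 commonly listed targets of PERK and ATF4, 3 were higher and 9 lower (median -0.27). At a mean count of 500 or more the ATF6 targets gave 2 higher and 6 lower of 9, and the PERK and ATF4 targets 2 higher and 8 lower of 11. ATF4 itself, the transcription factor of that arm, fell (-0.56 ± 0.032), as did the serine synthesis enzymes PHGDH (-1.64 ± 0.037) and PSAT1 (-1.16 ± 0.075), whereas the stress factors DDIT3 (0.81 ± 0.13) and ATF3 (1.04 ± 0.14) and the phosphatase subunit PPP1R15A (0.55 ± 0.029) rose. Of 28 commonly listed XBP1 targets, 15 of them among the 51 genes, 13 were higher and 4 lower (median 0.24). At a mean count of 500 or more 10 were higher and 3 lower of 18 such targets, and with the GC and length trend removed 6 were higher and 7 lower of the same 18, near the shares of all genes in that fit. There the ATF6 targets gave 1 higher and 6 lower of 9, and the PERK and ATF4 targets 3 higher and 7 lower of 11. The 3 lists share genes, with HERPUD1 in all 3 and PDIA6 among both ATF6 and XBP1 targets. The ATF6 list holds XBP1, and the PERK and ATF4 list holds ATF4 itself. The tallies by arm are therefore not separate readouts.

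Among the UPR effectors outside the 51 genes, 5 of 17 were higher, with PPP1R15B at 0.70 ± 0.068. Another 7 were lower, with the pseudokinase TRIB3 at -0.62 ± 0.092 (-0.35 with the trend removed). At a mean count of 500 or more 4 were higher and 5 lower of 12, or 75.0%, against 68.0% of all such genes. With the trend removed 4 were higher and 5 lower as well. Of 42 further ERAD genes, 15 were higher and 5 lower, and at a mean count of 500 or more 13 were higher and 4 lower of 28 (60.7% passed, against 68.0% of all such genes, 32.5% higher and 35.5% lower). With the trend removed 15 were higher and 3 lower, against 40.2% and 36.4% of all genes in that fit. They include FAF2, a membrane adaptor of VCP (0.93 ± 0.056), and SELENOK, a selenoprotein that binds derlins (1.22 ± 0.069), which rose, and AUP1 (-0.57 ± 0.032) and DDRGK1 (-0.55 ± 0.060), which fell and were at -0.33 and -0.30 with the trend removed. Of 11 genes of N-glycan trimming, 1 was higher, the mannosidase MAN1A1 (0.75 ± 0.13), and 6 were lower. Among these 6 were the lectin malectin, MLEC (-1.29 ± 0.042), and glucosidase I, MOGS (-0.63 ± 0.068, and -0.36 with the trend removed). At a mean count of 500 or more 1 was higher and 5 lower of 7, or 85.7%, against 68.0% of all such genes. With the trend removed 2 were higher and 5 lower, and 7 genes are too few to set this list apart.

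Of 31 further genes of translocation and signal peptide processing, 12 were higher and 5 lower. At a mean count of 500 or more 9 were higher and 4 lower of 22. Thus 59.1% passed, against 68.0% of all such genes (32.5% higher and 35.5% lower). With the GC and length trend removed 7 were higher and 5 lower of the 22, against 40.2% and 36.4% of all genes in that fit. SRP14, a subunit of the signal recognition particle (0.78 ± 0.042), and the translocon subunits SEC61G (0.64 ± 0.066) and SEC61A1 (0.39 ± 0.029) rose, and TRAM2 fell (-0.24 ± 0.037) with SRPRA. SRP14 was at 0.48 with the trend removed. SEC61G did not pass with the trend removed (0.10, adjusted p = 0.223), whereas SEC61A1 was at 0.47. Of 5 further oligosaccharyltransferase subunits 2 were higher, including MAGT1, which partners STT3B (0.60 ± 0.11, and 0.27 with the trend removed). At a mean count of 500 or more 1 was higher and 0 lower of 3, or 33.3%, against 68.0% of all such genes. The other pathway genes given above without a p passed with adjusted p of 0.00625 or less.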

How the data were processed

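The file that the authors deposited holds whole-number gene counts for 6 libraries, named raw per the file headers. The submitters' processing notes name FastQC, fastp, STAR, HTSeq, DESeq2, R 4.3.3 and GRCh38, with no roles. How reads were counted (strand, mode, annotation) is not given in the sources used here. Reads of overlapping or near-identical genes are uncertain. Symbols were matched for 99.8% of 61852 genes, coordinates are from GENCODE release 29 (GRCh38) and promoters from RefSeq (GRCh38.p14).

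The test was edgeR 4.0.16 in R 4.3.3 (TMM, filterByExpr at a minimum count of 10, robust quasi-likelihood F-test, Benjamini-Hochberg adjustment over 28303 genes, threshold 0.05). Library totals of 18945176 to 21711313 counts set the precision. The deposited values appear to hold reads plus 0, 1, 2, 10 or 100, since 57.9% of all genes show only those 5 values. The filter let in many such genes, so shares are also given for the 5038 genes with a mean count of 500 or more. Alternatives were 3 other scalings, 3 other filters, DESeq2 1.42.0, limma-voom (limma 3.58.1), non-robust dispersion, the replicate block, a test against 1.5-fold, each library left out with the genes tested kept, and a negative binomial model with an added number of 0, 1, 2, 10 or 100 (common dispersion 0.00293, likelihood-ratio test). The GC and length correction, and the fits at a mean count of 500 or more without each library or with the block, were added after seeing the data. Scripts were tested on simulated data.

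The 51 genes and all lists were chosen with earlier results of these data known. The named genes are MELK, the 51, HSPA5, HSP90B1, ATF4, DDIT3 and, of each pathway list, up to 2 genes with the largest rise and up to 2 with the largest fall past the threshold at a mean count of 500 or more.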

Additional observations from a re-analysis of the deposited data

How the results depend on the processing

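The count of 29 ER genes past the threshold, 18 higher and 11 lower, stayed within 1.5 times under all alternatives except the test against 1.5-fold, which gave 3 (1 higher and 2 lower) by its stricter null. Leaving out 1 library gave 23 to 27. Over all genes the count was 4683 (2297 higher and 2386 lower). It was 1180 (525 and 655) against 1.5-fold and 8965 (4327 and 4638) with the added number modelled, which passed 35 ER genes. The correlations of the deviations of libraries with equal numbers were 0.101, -0.012 and -0.081, so the numbers were not taken as pairs. With the replicate block 4182 genes and 26 of the 51 passed, and 3935 and 29 at a mean count of 500 or more; ATF6, SYVN1 and SPCS3 lost their calls in the first of these.

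Signs reversed only in genes near 0, with few reads or under the GC and length correction. With that correction ATF6 was at -0.0078, CANX at -0.083, DERL1 at -0.17, RPN1 at -0.0047, SSR1 at -0.13 and SPCS3 at -0.20. With library size alone EDEM1 was at 0.0056 and SSR2 at 0.064, and SSR2 was at 0.0069 at a mean count of 500 or more and at 0.0077 there with the block. EDEM3 was at -0.17 with limma-voom, -0.18 with the block and -1.28 with the added number modelled. Apart from the correction, for which the construction is the cause, the cause was not tested. With 1 library left out, reversed values were 0.015, 0.014, 0.0035 for SSR2 (range -0.042 to 0.015, and 0.032, 0.025, 0.016, 0.0073 at a mean count of 500 or more), 0.55, 0.029, 0.11 for MBTPS2, 0.72, 0.082 for ERO1B (range -1.52 to 0.72) and -1.04 for EDEM3, and there 0.016 for EDEM1 and 0.0013 for UGGT1. ATF6, DERL2 and SPCS3 lost their calls with the sign kept in 10, 11 and 9 of 26 alternatives. These included the fit without a filter (adjusted p = 0.303, 0.104 and 0.277) and limma-voom (0.0808, 0.0748 and 0.0629). Of all named genes, 3 lost their calls with upper quartile scaling and 1 with relative log expression scaling. Depth limits the 13 ER genes with a mean under 500 counts, where the added number weighs most.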
